A study of Mus musculus with 9 samples.

Results

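The retinoic acid pathway was represented by 10 genes, the receptors Rara, Rarb, Rarg, Rxra, Rxrb and Rxrg, the synthetic enzyme Aldh1a2 and the degrading enzymes Cyp26a1, Cyp26b1 and Cyp26c1. They were taken by name from the 21911 protein-coding genes of the annotation. A CHD7 peak was given to a gene when its midpoint lay in the regulatory domain of that gene, which ran from 5 kb upstream to 1 kb downstream of the TSS and reached on either side until a neighbouring basal domain began, at most 1 Mb. By this rule 6 of the 10 genes had a peak, against 22.7% of all genes, and their domains held 11 of the 3761 peaks of the list.

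CHD7 is an ATP-dependent chromatin remodeler, and its binding was measured by CUT&RUN, in which an antibody directs a nuclease to a protein and the released DNA is sequenced. The cells were wild-type (WT) mouse embryonic stem cells, of a C57BL6-derived line made in house, on their way to cardiomyocytes, collected at day 5 as cardiac progenitor (CP) cells, with 500000 cells per assay. There were 9 libraries in 3 groups of 3 replicates: anti-CHD7, an IgG control and input without antibody, all of the same genotype, day and cell number. The deposited list is a single one, of peaks called in each sample and found in more than 1 of the 3 anti-CHD7 replicates. It gives only positions, so no value below has a replicate error and the depth behind a peak is unknown. The cells were collected somewhat before the CP stage of the protocol the study followed, and the labelled cell type could not be checked against marker genes from peak positions.

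Retinoic acid is made from vitamin A by retinol dehydrogenases and then retinaldehyde dehydrogenases, and is removed by the CYP26 enzymes, so that its local level reflects the balance between synthesis and degradation. It binds the RAR receptors, which pair with RXR receptors on DNA and exchange corepressors for coactivators when the ligand is bound. In the embryo the signal patterns the posterior second heart field and the venous pole of the heart, and both too little and too much of it disturb heart formation.

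RAR and RXR proteins recognise the half-site AGGTCA, usually as 2 copies in the same direction. This half-site was found on either strand in 6 of the 11 peaks, 1 match in each, and the 81 bases around each match are printed because they show how often a second copy stands beside the first. The peak closest to the TSS of a pathway gene, in Rxra, held no AGGTCA, and its central 200 bases are printed as well. Sequences are from GRCm38, read 5′ to 3′ on the strand given. Capitals mark the half-site in its degenerate form, which allows A or G at position 1 and G or T at position 3. Peak numbers are the order in the list.
Rxrg peak195 half-site window, chr1:167518594-167518674, plus strand: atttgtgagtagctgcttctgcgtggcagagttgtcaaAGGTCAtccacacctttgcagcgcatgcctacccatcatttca
Rxra peak288 half-site window, chr2:27703790-27703870, minus strand: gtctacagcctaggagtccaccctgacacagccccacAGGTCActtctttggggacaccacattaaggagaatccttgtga
Cyp26b1 peak1284 half-site window, chr6:84497254-84497334, plus strand: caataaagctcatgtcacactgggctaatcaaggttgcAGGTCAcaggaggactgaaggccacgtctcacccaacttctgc
Cyp26b1 peak1285 half-site window, chr6:84616190-84616270, plus strand: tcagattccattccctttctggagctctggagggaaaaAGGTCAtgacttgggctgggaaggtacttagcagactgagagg
Rarb peak2914 half-site window, chr14:17410984-17411064, minus strand: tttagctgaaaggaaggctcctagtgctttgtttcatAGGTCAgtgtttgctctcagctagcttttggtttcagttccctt
Cyp26c1 peak3690 half-site window, chr19:37586662-37586742, plus strand: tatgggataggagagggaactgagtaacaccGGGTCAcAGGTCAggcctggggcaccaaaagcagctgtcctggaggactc
Rxra peak287 central window, chr2:27699528-27699727, plus strand: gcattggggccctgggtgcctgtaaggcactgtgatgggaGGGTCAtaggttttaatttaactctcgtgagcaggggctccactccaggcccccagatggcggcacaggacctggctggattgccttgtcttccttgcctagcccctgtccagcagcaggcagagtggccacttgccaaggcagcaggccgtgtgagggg

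Among these windows, a second half-site in the same direction stood beside the first only in peak3690 of Cyp26c1. There the 2 copies were 1 base apart, from 37586693 to 37586705 on chromosome 19, and lay 77 bp from the midpoint of the peak. The window of Rxra peak288 runs past the end of the peak, because its half-site lay 478 bp from the midpoint.

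Of the 10 genes, 6 had at least 1 peak (60.0%), while 4979 of all 21911 genes did (22.7%). With each peak given to the single nearest TSS it was 2 of 10, Rxra and Cyp26b1, against 14.2% of all genes, and with the basal domain alone 0 of 10 against 3.16%. When all genes were ranked by the length of the domain into 10 equal classes, the share with a peak was 5.7% in class 1, with the shortest domains, 45.0% in class 9 and 44.1% in class 10. The 6 pathway genes with a peak were in classes 7 to 10. The 4 without a peak were Rxrb in class 1, Rarg in class 2, Rara in class 5 and Aldh1a2 in class 9. The median domain of the 10 pathway genes was 264.7 kb, which is in class 8, where 34.8% of genes had a peak. With 11 peaks over 3.76 Mb of domains, the pathway genes had 2.93 peaks per Mb, against 1.48 over the domains of all genes.

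**Figure D1:**
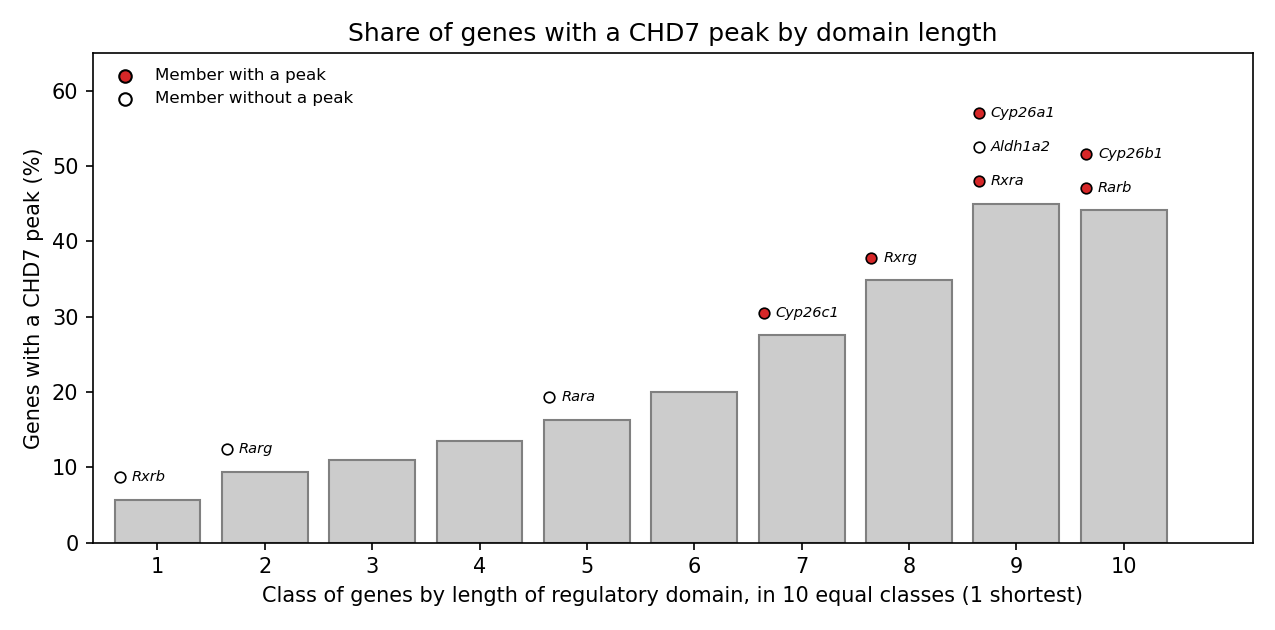
Bars show the share of protein-coding genes with a CHD7 peak (%, vertical axis) in 10 equal classes of genes by length of the regulatory domain (horizontal axis), and circles above them place the 10 pathway genes, filled for those with a peak. The filled circles stand over classes 7 to 10, where 27.5% to 45.0% of genes had a peak.

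Fixed windows around the TSS, which do not depend on neighbouring genes, gave another count. Within 50 kb of the TSS a peak was found for 3 of the 10 genes, Rara, Rxra and Cyp26b1, against 22.3% of all genes. Within 100 kb it was 6 of 10, with Rxrb, Rxrg and Cyp26c1 added, against 36.8%. Within 250 kb it was 8 of 10 against 61.3%, and within 1000 kb it was 9 of 10 against 87.6%. Aldh1a2 was the gene without a peak in the widest of these windows.

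**Figure D2:**
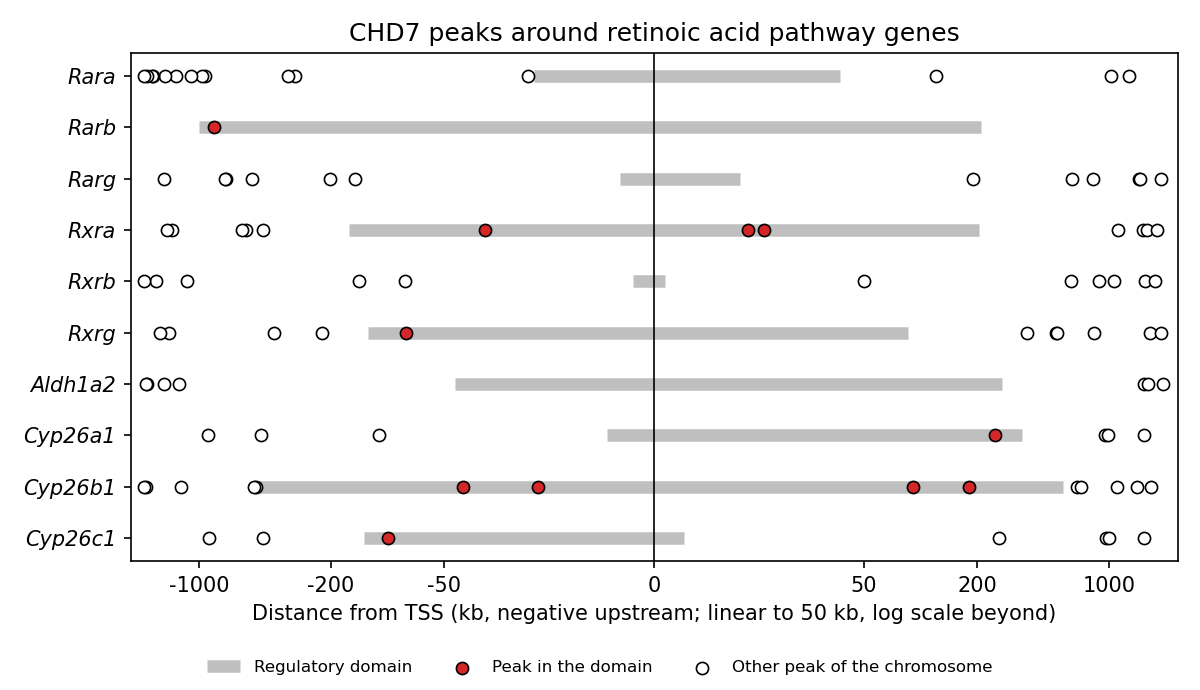
Each row is 1 pathway gene, with its regulatory domain as a grey bar, peaks inside the domain as filled circles and other peaks of the chromosome as open circles, at their distance from the TSS in kb (linear to 50 kb, log scale beyond). Filled circles are found for 6 of 10 genes, and Cyp26b1 has 4 of them, on both sides of its TSS.

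Among the RAR genes, which encode the receptors that bind all-trans retinoic acid, only Rarb had a peak. The share with a peak was 22.7% over all genes. In the classes of domain length of Rarb, Rara and Rarg it was 44.1%, 16.3% and 9.36%. The Rarb call was lost with an extension of 500 or 100 kb, with the single nearest TSS and with only peaks wider than the median. No peak lay within 500 kb of the Rarb TSS, whereas Rara had 1 within 50 kb and Rarg 3 within 250 kb, outside their domains. Rarb is itself a well-known target of retinoic acid. It lies on the minus strand of chromosome 14 with its TSS at 16575543, and its domain was 1209364 bp long. Peak2914, from 17410794 to 17411403, was 610 bp wide, lay in intergenic sequence and was at -835555 bp from the TSS, a negative distance being upstream. It was the peak farthest from the TSS used for its gene among the 11. Rarb has 7 annotated TSSs, and the gene reaches upstream to 16819156, which is nearer to the peak. The same peak was given to Thrb, the thyroid hormone receptor beta gene, at -570431 bp, and the nearest TSS of any transcript, at 249163 bp, was also of Thrb. The nearest other peak was 2392218 bp away. The GC content was 43.1%, and 0.492% of its bases were masked as repeats.

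Rara and Rarg, the other RAR genes, had no peak in their domains of 72864 and 28618 bp. The nearest peak to the Rara TSS on chromosome 11, peak2479, was at -29982 bp and was given to Cdc6, a DNA replication licensing factor. It lay just outside the Rara domain, which starts at 98909152 while the peak ends at 98908139. For Rarg, on chromosome 15, the nearest was peak3230 at -148002 bp, given to Sp1, which encodes a zinc finger factor of GC-rich promoters. Of all genes, 15.0% had a nearer peak than Rara and 47.0% a nearer peak than Rarg.

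Of the RXR genes, the shared partners of RAR and several other nuclear receptors, Rxra and Rxrg had peaks. Against 22.7% of all genes, 45.0%, 34.8% and 5.7% had a peak in the classes of domain length of Rxra, Rxrg and Rxrb. Rxra, the main RXR of the embryonic heart, lies on the plus strand of chromosome 2 with its TSS at 27677201. It had 3 peaks in a domain of 365267 bp, a number that 1.75% of all genes reached or passed. Longer domains held more peaks, with a mean of 0.676 per gene in class 9, that of Rxra, and 0.0584 in class 1. Peak286, from 27636514 to 27637479, was intergenic at -40205 bp. Peak287, from 27699358 to 27699899, and peak288, from 27702871 to 27703835, were at 22427 and 26152 bp, both in intron 1 of Rxra. These intronic peaks were 3725 bp apart, the smallest spacing among the 11.

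In Rxra the nearest TSS of any transcript was its own for all 3 peaks, at 39444, 9664 and 5939 bp in the same order. The rule also gave peak286 to Wdr5, a subunit of histone methyltransferase complexes, at 121839 bp. The intronic pair was given to Col5a1 as well, a fibrillar collagen gene, at -186797 and -183072 bp. The intronic peaks had the highest GC content of the 11, with 57.6% in peak287 and 56.1% in peak288. Of all peaks in the list, 93.0% had a lower GC content than peak287.

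Rxrg, the RXR gene with the most restricted expression, had 1 peak in a domain of 212776 bp on chromosome 1. Peak195, from 167518478 to 167519050, was intergenic at -79620 bp and 573 bp wide. Lrrc52, which encodes an auxiliary subunit of potassium channels, shared it at -51984 bp and had the nearer TSS. Rxrg had no peak with the single nearest TSS or with only peaks wider than the median. Rxrb, on chromosome 17, had the shortest domain of the 10 genes at 7660 bp and no peak in it. The nearest peak, peak3422, was at 50428 bp and was given to Col11a2, a collagen gene, and H2-Oa, a gene of antigen presentation. Although it lacked a peak by the rule, 2 peaks lay within 100 kb of the Rxrb TSS.

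Aldh1a2 encodes the retinaldehyde dehydrogenase that makes most retinoic acid in the early embryo, including the posterior second heart field. Its domain on chromosome 9 spanned 316645 bp and held no peak. The nearest peak of the chromosome, peak1966, was at -1274774 bp from the TSS at 71215789 and was given to Bnip2, an adaptor protein gene, and Foxb1, a forkhead factor gene. On the downstream side the nearest was peak1967 at 1528235 bp. A nearer peak was found for 90.3% of all genes, and 45.0% of genes with domains of similar length had a peak. With positions alone in the list, binding under the calling threshold could not be examined.

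The 3 genes of degradation each had a peak, with 6 of the 11 peaks between them. A peak was found for 22.7% of all genes, and for 27.5%, 45.0% and 44.1% of genes in the classes of domain length of Cyp26c1, Cyp26a1 and Cyp26b1. With the single nearest TSS, Cyp26b1 alone of the 3 kept a peak. CYP26 enzymes are cytochromes that oxidise retinoic acid and so bound its gradients. Cyp26b1, on the minus strand of chromosome 6 with its TSS at 84588638, had 4 peaks in 1048123 bp, the most of the 10 genes. At least 4 peaks were found for 116 of all genes (0.529%), and 75 of these were in the class with the longest domains, as Cyp26b1 was.

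The Cyp26b1 peaks lay on both sides of the gene. Upstream, peak1285, from 84615891 to 84616752, was intergenic at -27683 bp and peak1286, from 84634022 to 84634531, was at -45638 bp in intron 20 of Exoc6b, which encodes a subunit of the exocyst complex. Downstream, peak1284, from 84496548 to 84497430, and peak1283, from 84407570 to 84409000, were intergenic at 91649 and 180353 bp. Peak1283, 1431 bp wide, was the widest of the 11 and peak1286, with 510 bp, the narrowest. The nearest TSS of any transcript was of Cyp26b1 for all 4 peaks. By the rule the upstream pair was given to Exoc6b as well, at 453192 and 435237 bp from its TSS. The downstream pair was given to Dysf, the gene of the membrane repair protein dysferlin, at 477600 and 388896 bp.

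Cyp26a1 and Cyp26c1 are neighbours on the plus strand of chromosome 19, with TSSs at 37697798 and 37685581. Each had 1 peak. Peak3690, from 37586028 to 37587216, was given to Cyp26c1, from which it was at -98959 bp, and lay in intron 9 of Exoc6. Exoc6 encodes another exocyst subunit, and its TSS was the nearest, at 36204 bp. From the Cyp26a1 TSS this peak was at -111176 bp, but the basal domain of Cyp26c1 closed the Cyp26a1 domain on that side. Peak3691, from 37945952 to 37946782, was given to Cyp26a1 at 248569 bp and lay in intron 25 of Myof, which encodes myoferlin. Myof shared it at 97210 bp from the TSS used for its domain, and the nearest TSS of any Myof transcript was 6386 bp away. Neither gene had a peak with the single nearest TSS, and Cyp26a1 also had none with an extension of 100 kb or with the TSSs of every transcript.

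The CYP26 loci had the same kinds of neighbours. Exoc6b and Exoc6 are paralogs, as are Dysf and Myof, which belong to the ferlin family. At both loci a peak was found on the side of the exocyst gene and on the side of the ferlin gene. In each case a peak lay inside an intron of the exocyst gene, peak1286 in Exoc6b and peak3690 in Exoc6. Peak3690 was 1189 bp wide with 41.9% GC, the lowest of the 11, and peak1286 had 46.5%.

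The 11 peaks were distal to promoters. None lay within 5 kb of the nearest TSS of any transcript, where 1205 of all 3761 peaks (32.0%) did, and 8 of 11 (72.7%) were over 10 kb away, against 56.7% of all peaks. Their median distance to the nearest TSS was 39444 bp, against 13852 bp. These contrasts with all peaks are partly set by the rule, because a domain stops at a neighbouring basal domain. Peaks at the promoters of other genes are mostly left out of the 11 in this way, but are kept among all peaks. To the TSS of the pathway gene the median was 79620 bp, against 57398 bp over all 6819 gene and peak pairs. This median, for the pathway genes and for all pairs, moved with the rule. It was 40.2 kb against 27.6 kb with the single nearest TSS and 42.9 kb against 26 kb with an extension of 100 kb. Of the 11, 6 were outside any annotated gene (54.5%, against 39.9%). The other 5 were in introns of protein-coding genes (45.5%, against 53.2% of all peaks anywhere in such genes). No exon of any annotated transcript touched the 11 peaks. All 11 were given to 2 genes, as were 81.1% of all peaks. The pathway gene had the nearest TSS in 7 of 11, all of them peaks of Rxra or Cyp26b1. For that count no share over all peaks was computed.

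The median width of the 11 peaks was 862 bp, against 703 bp over all peaks, whose quartiles were 530 and 1053 bp. Their median GC content was 48.9% against 47.5%, and the median share of bases masked as repeats was 8.93% against 13.2%. For width, 7 of 11 were above the median of all peaks, and for GC content 8 of 11. Both ranges lay well inside those of the list.

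**Figure D3:**
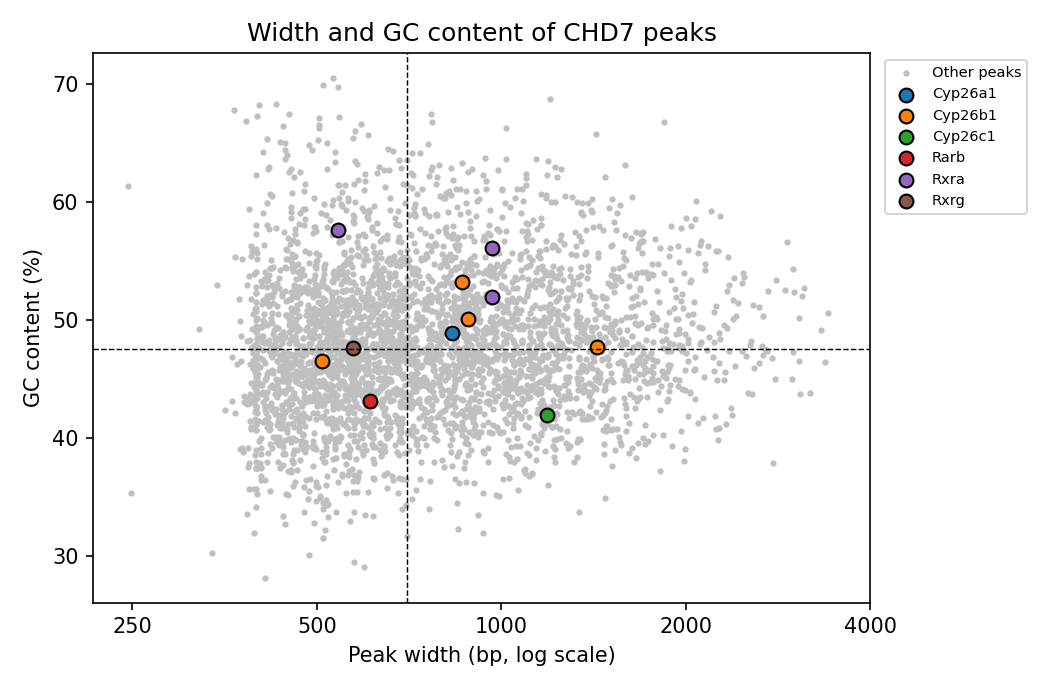
Each point is 1 of 3761 peaks by width (bp, log scale) and GC content (%), with the 11 peaks of pathway genes in colour by gene and dashed lines at the medians of all peaks, 703 bp and 47.5%. The coloured points are spread through the cloud, and the 3 Rxra points are above the median GC content.

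The half-site AGGTCA, on either strand and over the whole peak, was in 6 of 11 peaks (54.5%) and in 1564 of all 3761 (41.6%). Because a wide peak holds more matches, the share of all peaks at least as wide as the narrowest of the 11 was also counted, and was 46.3%. In the central 200 bp it was in 3 of 11, peak1285, peak2914 and peak3690, against 13.0% of all peaks. The degenerate form was in 10 of 11 against 79.7%, or 84.3% of peaks at least as wide, and peak1283 of Cyp26b1 was the exception.

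Direct repeats of the degenerate half-site were rare. With 1 base between the copies, the spacing bound by RXR pairs among others, a repeat was in 25 of all peaks (0.665%) and in 1 of the 11, peak3690. In the central 200 bp it was in 5 of all peaks (0.133%), and peak3690 was among them. With 2 bases between the copies a repeat was in 29 peaks (0.771%) and with 5 bases, the classical spacing of RAR and RXR pairs, in 13 (0.346%), none of them of the 11. These are matches of letters and not measured binding of a receptor.

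Letters of other factors were searched on both strands in the same way. The GATA letters AGATAA were in 4 of 11 peaks, against 36.8% of all peaks, with 4 matches in peak3690, 2 in peak2914 and 1 each in peak288 and peak1284. T-box letters (AGGTGT) were in 6 of 11 against 38.0% and TEAD letters (GGAATG) in 6 of 11 against 39.1%. A MEF2 consensus was in 2 of 11, peak1285 and peak3690, against 9.55%. SP/KLF letters (GGGCGG) were in 2 of 11, both of Rxra, against 23.4%. Caudal letters (CATAAA) were in 1 of 11, peak3691 of Cyp26a1, against 35.8%. Of peaks at least as wide as the narrowest of the 11, 40.4% had GATA, 42.2% T-box and 43.1% TEAD letters. In the same set 10.6% had a MEF2 consensus, 26.3% SP/KLF letters and 39.1% caudal letters. The half-site and T-box letters share their first 4 bases but cannot match at the same position of a strand.

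Other genes of retinoid biology were counted from 6 lists, each set beside the 22.7% of all genes and the share in the class of domain length that holds the median of the list. Over the 69 genes in them, 25 had a peak (36.2%, against 27.5% in the class of their median domain of 171.3 kb). Dhrs3 is in the lists of synthesis and of response genes and is counted in both of their shares, but 1 time among the 69. For synthesis apart from Aldh1a2 it was 2 of 12 (16.7%, against 19.95%). Rdh10, the retinol dehydrogenase of the embryo, had 2 peaks, at 30920 and 188205 bp. Dhrs3, which returns retinaldehyde to retinol, had 1 at 217018 bp. Aldh1a1 and Aldh1a3, the other retinaldehyde dehydrogenases, and Dhrs9, a retinol dehydrogenase, had none in domains of 330617, 291543 and 237464 bp.

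For transport it was 2 of 8 (25.0%, against 27.5%). Stra6, the receptor for retinol uptake, had 1 peak at 16920 bp, and Crabp1, a cytosolic retinoic acid binding protein, had 1 at 19077 bp. Fabp5 and Ttr, which carry retinoids or their binding proteins, had none. Among the coregulators of the receptors 6 of 12 (50%) had a peak, in domains with a median of 335.9 kb, against 45.0% in that class. The coactivator genes Ncoa3 and Ncoa2 had 3 and 2 peaks, the nearest at 44475 and -70835 bp, and the corepressor gene Ncor1 had 1 at 14745 bp. Tbl1x, Nrip1 and Crebbp, which act in the same complexes or on them, had none.

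Of the receptors that pair with RXR, 3 of 13 (23.1%, against 19.95%) had a peak. Ppara, a receptor for fatty acids, had 3, the nearest at -28064 bp. Vdr, the vitamin D receptor, had 1 at 195 bp from the TSS, and Thrb had the peak it shares with Rarb. Nr4a2, Pparg and Nr1i2 had none. Of the orphan receptors that bind the same repeats 2 of 7 (28.6%, against 34.8%) had a peak, Nr2c2 at 40053 bp and Nr6a1 at -97162 bp. Nr2f2 and Nr2f1, the COUP-TF genes, had none in domains of 1989892 and 1173855 bp, and their nearest peaks were 1600049 and 2101285 bp away. Nr2c1 had none either.

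Genes known to respond to retinoic acid had a peak in 11 of 18 cases (61.1%), against 22.7% of all genes and 27.5% in the class of their median domain of 133.9 kb. Meis1, a homeobox factor, had 3 peaks with the nearest at -1805 bp, and Hoxa4 had 2, at -8129 and -11349 bp. Tbx5, a T-box factor of the posterior heart field, had 2, at 13318 and -128146 bp. Tbx1 and Fgf8 had none, although a peak lay 9924 bp from the Fgf8 TSS. Whereas the nearest peak of a pathway gene in its domain was at 22427 bp, Vdr and Meis1 had a peak within 5 kb.

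**Figure D4:**
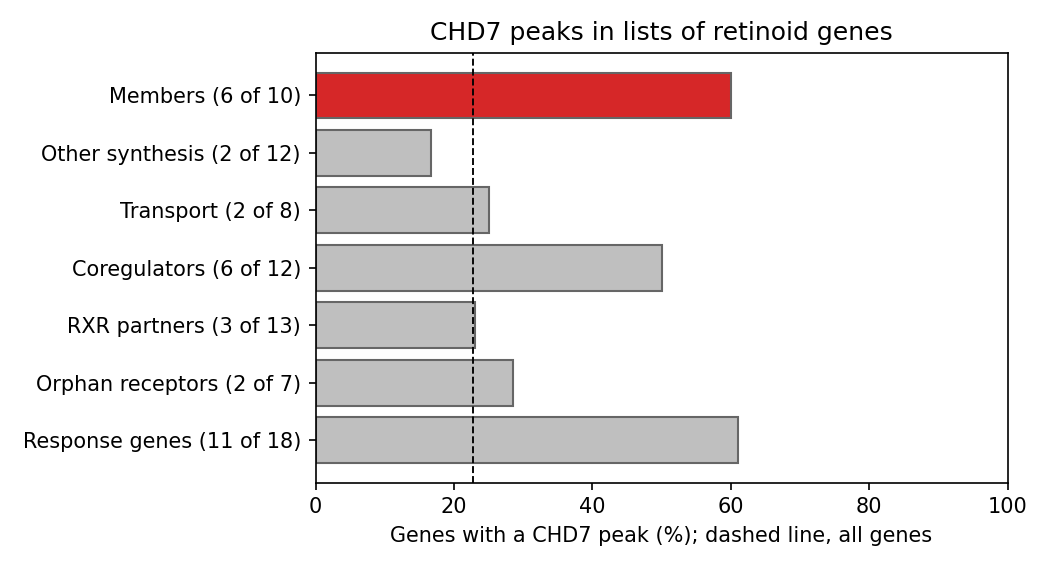
Bars show the share of genes with a CHD7 peak (%) among the 10 pathway genes and in 6 lists of other retinoid genes, with the counts beside each name, and the dashed line is the share of all genes, 22.7%. The bars of the pathway genes (60.0%), coregulators (50%) and response genes (61.1%) are the longest, and domain length, which differs between the lists, is not taken into account.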

How the data were processed

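Per the labels and the study's methods, the authors trimmed reads with fastp 0.20.1, aligned them to mm10 with BWA 0.7.17.4, removed duplicates by unique molecular identifiers and called peaks in each sample with MACS2 2.1.2 against IgG. A peak was kept when more than 1 of the 3 anti-CHD7 replicates had it. DeepTools 3.1.0 is also named in the submitters' processing notes. The deposited values are peak positions in bp in 1 list, with no score, and 0 columns of values were left unmatched. The calling threshold is not given in the sources used here. Reads, and libraries made with IgG or from input, were not used here.

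Starts were read as counted from 0. Positions were set against GRCm38.p6 and GENCODE M21, and 0 peaks ran past the end of a chromosome. For each gene symbol 1 TSS was used, with coding transcripts preferred, then the best APPRIS class, then the greatest spliced length. An extension stopped at the basal domain of any gene on that side. Domain lengths were ranked into 10 equal classes. Repeats are the lower-case bases of the RefSeq genome file. Motifs were exact letters, with overlapping matches kept.

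The pathway genes and the lists were chosen with earlier results of these data known, so no test was made over them. Named genes were the 10 pathway genes, genes sharing a peak with them or with the nearest TSS, the nearest peak of those without one, and from each other list the 3 genes with most peaks (ties by distance) and up to 3 without a peak, by longest domain. Some genes that this rule names are not reported here. Tbx5 and the genes named for direct repeats were added after their values were seen. Alternatives changed the TSSs, the association rule, the extension, the peaks used, the start coordinate, and the window, letters or background of motifs. The functions were tested on simulated data. Samtools 1.23.1 indexed the genome, and matplotlib 3.10.9, pysam 0.24.0, scipy 1.17.1, pandas 2.3.3 and numpy 2.4.6 were run under Python 3.11.15.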

Additional observations from a re-analysis of the deposited data

How the results depend on the processing

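The number of pathway genes with a peak was 6, and it stayed within 1.5 times of that under 10 of 12 alternatives, from 4 to 6. It was 2 with the single nearest TSS (14.2% of all genes), Rxra and Cyp26b1, and 0 with the basal domain alone (3.16%). The peaks in their domains numbered 11, and 7 with the single nearest TSS, 7 with only peaks wider than the median and 0 with the basal domain alone, which gives no median distance or width. Rarb lost its peak with an extension of 500 kb, Rarb and Cyp26a1 with 100 kb, Cyp26a1 with the TSSs of every transcript, and Rarb and Rxrg with only peaks wider than the median. The median distance ran from 40.2 to 91.6 kb, and moved by over 1.5 times with the single nearest TSS (40.2 kb) and the 100 kb extension (42.9 kb). The median width ran from 862 to 965 bp. Both stayed within the wide 95% intervals of medians over 11 peaks, by order statistics. The other retinoid genes with a peak numbered 25, and 3 with the basal domain alone. Peaks with the half-site numbered 6, and 3 in the central 200 bp and 10 with the degenerate letters. Each of these alternatives, by its construction, counts fewer or more genes, peaks or matches. An extension stopped only by the next TSS, chosen after seeing the data, gave 6 pathway genes and 11 peaks. No paired analysis was possible because the list does not give the replicates separately and no result comes from a test. For the same reason no replicate could be left out, and the strength of a peak, its error and the depth behind it are not known.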

Other observations

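Direct repeats of the degenerate half-site elsewhere in the list were looked up after the values above had been seen. With 5 bases between the copies, 1 of the 13 peaks was peak326, shared by Nr6a1 at -97162 bp and Olfml2a at -50301 bp. Nr6a1 is a nuclear receptor gene itself. Others were peak664 at -6136 bp from the TSS of Notch2, a Notch receptor gene, and peak3712 at -194 bp from that of Scd1, a fatty acid desaturase gene. Both copies read AGGTCA in 1 of these 13 peaks, in 1 of the 29 with 2 bases between the copies and in 8 of the 25 with 1 base. Among those 8 was peak546, at 50324 bp from the TSS of Bmp7, a BMP ligand gene.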
